A study of Mus musculus with 6 samples.

Results

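The theta-class glutathione transferases of the mouse, Gstt1, Gstt2, Gstt3 and Gstt4, were followed in a macrophage cell line after long exposure to a bacterial stimulus. Their probes were taken by gene symbol from the platform annotation, which gave 6 of the 16281 probes on the arrays: 1 probe each for Gstt3 and Gstt4 and 2 probes each for Gstt1 and Gstt2. These were all the platform symbols that start with Gstt. The family was chosen by the treatment ratio: it was picked with earlier results of the same treated against untreated contrast known, in which Gstt4 was among the largest increases. Treatment ratios of the Gstt probes are therefore given as a description, with no p-value, and nothing is read from how many of them were called.

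The cells were RAW 264.7, a mouse macrophage line that some labels write as RAW 264.4. Treated cells were cultured for 48 h with lipopolysaccharide (LPS, 100 ng/ml), the endotoxin of the Gram-negative cell wall, together with LPS-binding protein (LBP, 100 pM), the serum protein that hands LPS to its receptors. Untreated cells were cultured for the same 48 h. Both RNAs were hybridised together on each of 6 two-colour arrays, with the treated RNA in Cy5 (red) on 3 arrays and in Cy3 (green) on the other 3, and each orientation had an array of set 1, set 2 and set 3. The labels do not say whether each set had its own culture, so the spread between sets may be technical, and all the cells are of 1 line.

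Glutathione transferases join glutathione, the main small thiol of the cell, to reactive electrophiles, which makes these easier to export and less able to attack proteins and DNA. The theta class is set apart from most other cytosolic classes by a serine in the active site, and its enzymes act on small halogenated hydrocarbons and epoxides. In the mouse the class is best known from the liver, and the products of the reaction are not always less reactive than the substrates.

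Every value below is a log2 ratio of treated over untreated RNA within an array, with the sign turned where the treated RNA was in Cy3. A ratio of exactly 0 was treated as missing, since 7.97% to 17.8% of the values on an array were exactly 0. A mean ± SD is over the 3 set means, each the average of both dye orientations. The logarithm’s base is not given in the sources used here and was read as 2. Read as a natural logarithm, the mean of Gstt4 would be 47.3-fold in place of 14.5-fold. The arrays give no level of a transcript in either RNA. For that reason the labelled cell type could not be checked by presence of its markers: of 12 macrophage genes listed, 11 had a probe, and of their 13 tested probes 3 were called higher and 2 lower in treated cells (limma, adjusted p under 0.05), with a median of 0.02, where 27.1% of all tested probes were called in either direction. Of 5 tested hepatocyte probes 2 were called higher and 1 lower (median -0.04, range -0.36 to 1.23). Of 6 fibroblast probes 2 were called higher and 0 lower (median 0.04, range -0.21 to 2.68), the higher ones being the proteoglycan genes Dcn and Lum. The part of these changes in the Gstt values was not tested. Arrays of 1 orientation correlated at 0.67 to 0.77 and arrays of opposite orientation at -0.66 to -0.41, before the sign was turned. These correlations, unlike the other values, are over all 16281 probes with zeros kept as values. The direction used here rests partly on Il1b, Il6, Tnf and Nos2, textbook LPS-induced genes, each probe of which was above 0 on 6 of 6 arrays.

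Gstt4 and 1 probe of Gstt1 showed the high ratios of the family, Gstt3 was intermediate, and both Gstt2 probes and the other Gstt1 probe lay near 0. Arrays are called Cy5 or Cy3 arrays after the dye of the treated RNA. The Gstt4 probe (8678) read 3.66, 4.37 and 4.70 on the Cy5 arrays of sets 1, 2 and 3, and 3.00, 3.65 and 3.76 on the Cy3 arrays of the same sets. All 6 arrays were at 3.00 or above, and in each set the Cy5 array was the higher one. Its mean was 3.86 ± 0.47 (n = 3 sets), 14.5-fold, and 11 of the 12724 probes with a ratio on all 6 arrays, itself included, were at or above it. With arrays of bulk RNA, more cells with the transcript and more transcript per cell cannot be told apart.

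Gstt1, whose product is the theta enzyme best known for acting on small halogenated alkanes, was measured by 2 probes that differed widely. Probe 1709 read 3.63, 4.55 and 4.38 on the Cy5 arrays of sets 1, 2 and 3 and 2.89, 3.35 and 3.09 with treated RNA in Cy3. These values were close to those of Gstt4 on the same arrays: Gstt1 probe 1709 minus Gstt4 ran from -0.67 to 0.18, with a root mean square difference of 0.34. The mean of probe 1709 was 3.65 ± 0.35 (n = 3 sets), 12.6-fold, and 17 of 12724 probes were at or above it.

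The second Gstt1 probe (9060) read -0.06 and -0.40 in sets 1 and 3 with treated RNA in Cy5, was listed at 0 in set 2, and read 0.49, -0.08 and 0.24 in sets 1, 2 and 3 with treated RNA in Cy3. It was above 0 on 2 of 5 arrays, and its highest array lay below the lowest array of probe 1709. Over the 2 sets with both orientations its mean was 0.07 ± 0.21. The probes of Gstt1 were thus 3.58 apart in their means, and on the 5 arrays where both had a ratio probe 1709 exceeded probe 9060 by 2.41 to 4.78. Gstt1 itself is not among the 1723 symbols with 2 or more probes tested on all 6 arrays, since probe 9060 had a ratio on 5. The median range between probes of those symbols was 0.13. One symbol, 0.058% of them, had a range at least as large: Ifi202b, with 3 probes from 0.01 to 5.17, which is named here after its values were seen. A single ratio for Gstt1 cannot be given from these probes. The platform names both by the same gene ID. The accession of probe 9060 is one that RefSeq lists for a Gstt gene, and that of probe 1709 is not. The same holds for Gstt2, where the accession of probe 2882 is listed and that of probe 1203 is not, and the accessions of the Gstt3 and Gstt4 probes are also not listed. Paralogues of a class are alike in sequence, probe sequences were not used here, and whether probe 1709 also binds the Gstt4 transcript, or the reverse, was not tested.

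Gstt3 (probe 11683) read 1.66, 2.03 and 1.52 on the Cy5 arrays of sets 1, 2 and 3 and 1.29, 1.61 and 1.21 on the Cy3 arrays of the same sets. All 6 arrays were above 1.2 and below 2.1, so they lay above every array of the Gstt2 probes and of Gstt1 probe 9060, and below every array of Gstt4 and of Gstt1 probe 1709. The mean was 1.55 ± 0.24 (n = 3 sets), 2.94-fold. Gstt3 minus Gstt4 ran from -3.18 to -1.71 on the 6 arrays.

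Gstt2, whose human counterpart GSTT2 is known for acting on aryl sulfate esters, was near 0 on both probes. Probe 1203 read -0.48, -0.37 and -0.36 on the Cy5 arrays of sets 1, 2 and 3 and -0.31, 0.38 and -0.42 with treated RNA in Cy3. Its mean was -0.26 ± 0.23 (n = 3 sets), with 1 array of 6 above 0. Probe 2882 read -0.20 and -0.58 in sets 1 and 3 with treated RNA in Cy5, was listed at 0 in set 2, and read 0.13, 0.52 and 0.89 in sets 1, 2 and 3 with treated RNA in Cy3. Its sign followed the dye: both arrays with treated RNA in Cy5 were below 0 and all 3 with treated RNA in Cy3 above it. Its mean over the 2 sets with both orientations was 0.06 ± 0.14, which does not show a precise value. Gstt2 probe 2882 and Gstt1 probe 9060 were listed at 0 on the same array, the set 2 array with treated RNA in Cy5.

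**Figure D1:**
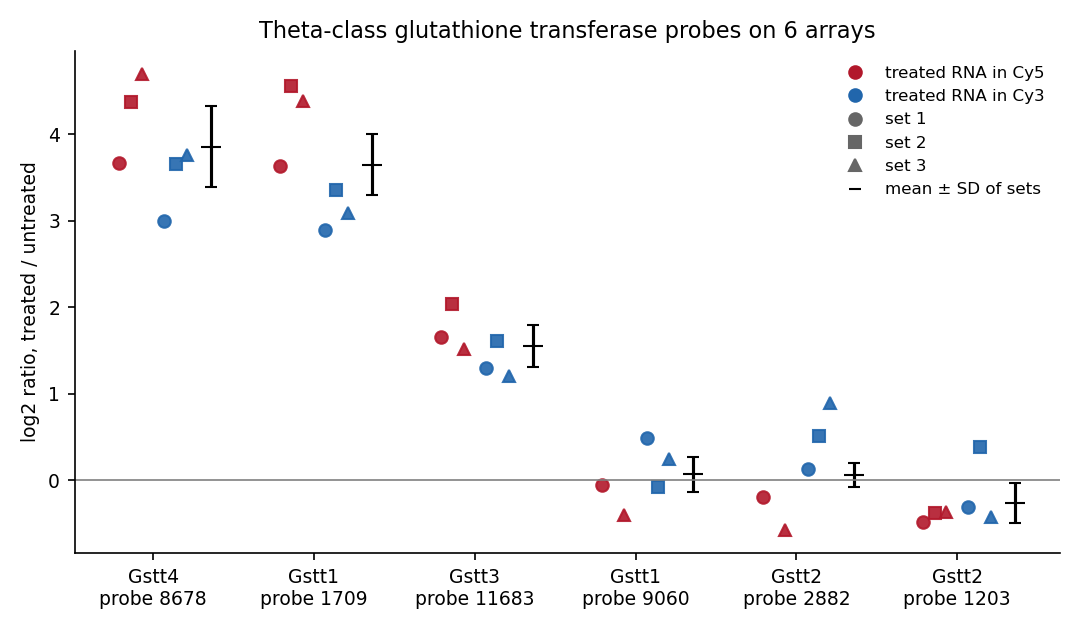
Log2 ratio of treated over untreated RNA (vertical axis) for the 6 Gstt probes, with each array as a point coloured by the dye of the treated RNA and shaped by set, and the mean ± SD of the set means in black (3 sets, or 2 for Gstt1 probe 9060 and Gstt2 probe 2882). Gstt4 and Gstt1 probe 1709 lie at 2.89 or above on every array, Gstt3 between 1.21 and 2.03, and the other probes between -0.58 and 0.89.

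The order of the means was Gstt4, Gstt1 probe 1709, Gstt3, Gstt1 probe 9060, Gstt2 probe 2882 and Gstt2 probe 1203. The first pair in that order lay close together, with means 0.21 apart. Gstt4 was the higher in each set (set means 3.33, 4.01 and 4.23 against 3.26, 3.95 and 3.74). It was not the higher on every array (Gstt1 probe 1709 minus Gstt4, -0.67 to 0.18), and the difference was not tested. The last 3 probes overlapped array by array. Of the 4 Gstt probes with a ratio on all 6 arrays, 3 were called higher and 0 lower in the fit over all probes (limma, adjusted p under 0.05), where 14.8% of 12724 probes were called higher and 12.2% lower. With zeros kept as values, 3 of 6 Gstt probes were called higher, and 8.64% of all 16281 probes were called in either direction. The contrast is the one by which the family was picked, so nothing is read from that count.

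The dye of the treated RNA is a measure that the choice of the family did not use. For Gstt4 the mean was 4.24 over the 3 arrays with treated RNA in Cy5 and 3.47 over the 3 with treated RNA in Cy3. For Gstt1 probe 1709 these means were 4.19 and 3.11, and for Gstt3 they were 1.74 and 1.37. In all 3 sets the Cy5 array was the higher for each of these probes. The dye component, which is the mean of the Cy5 over Cy3 ratios before any sign was turned, was 0.39 ± 0.07 for Gstt4, 0.54 ± 0.15 for Gstt1 probe 1709 and 0.18 ± 0.03 for Gstt3 (n = 3 sets). It did not pass the test over 12724 probes (limma on the set means of ratios not turned, adjusted p = 0.0977, 0.0977 and 0.114), and it was -0.15 ± 0.21 for Gstt2 probe 1203 (adjusted p = 0.357). Thus 0 of 4 tested Gstt probes were called for dye, against 0.181% of all probes, and 3 of the 4 were at an unadjusted p under 0.05, as were 26.3% of all 12724 probes (0.000896, 0.000812 and 0.0118, in the order Gstt4, Gstt1 probe 1709 and Gstt3). A dye component above 0 was shared with other strongly higher probes: outside the family, 36 of 42 probes with a mean of 3 or more had one, with a median of 0.19, and so did 217 of 389 probes with a mean of 1 or more, with a median of 0.02. The upper quartile of the dye component of those 42 probes was 0.36, below Gstt4 and Gstt1 probe 1709. For the 389 probes it was 0.13, below Gstt3. The dye component is thus not independent of the size of the ratio, with which the family was picked. The ratios of Gstt4, Gstt3 and Gstt1 probe 1709 were above 0 in both orientations of every set.

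**Figure D2:**
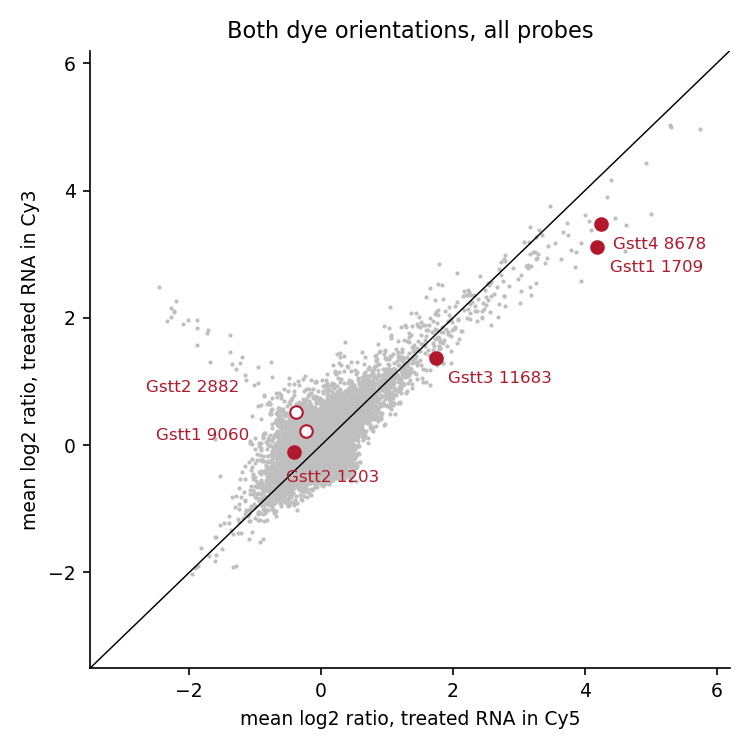
Mean log2 ratio of treated over untreated RNA over the arrays with treated RNA in Cy5 (horizontal) and in Cy3 (vertical), for 12724 probes in grey and the Gstt probes in red, where open circles had 1 array listed at 0 and the line marks equal values. Gstt4 (4.24 and 3.47) and Gstt1 probe 1709 (4.19 and 3.11) lie below the line, and Gstt2 probe 2882 (-0.39 and 0.51) and Gstt1 probe 9060 (-0.23 and 0.22) have opposite signs.

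The 4 genes stand side by side on mouse chromosome 10 in the order Gstt3, Gstt1, Gstt4 and Gstt2, with no other protein-coding gene between them in the RefSeq annotation (GRCm38.p6). The gene before Gstt3 is Ddt, which encodes D-dopachrome tautomerase, and the gene after Gstt2 is its relative Mif, which encodes macrophage migration inhibitory factor. Ddt rose. It read 2.35, 2.49 and 2.13 on the Cy5 arrays of sets 1, 2 and 3 and 2.47, 2.40 and 2.21 with treated RNA in Cy3, all above 2.1. Its mean of 2.34 ± 0.15 (5.07-fold, higher on 6 of 6 arrays, limma, adjusted p = 9.67e-07) lay between those of Gstt3 and Gstt1 probe 1709. Mif, in contrast, had 2 probes at 0.06 ± 0.13 and 0.05 ± 0.17, which did not pass (adjusted p = 0.672 and 0.748). In gene order, then, values well above 0 ran from Ddt through Gstt3 and Gstt1 probe 1709 to Gstt4, and values near 0 were seen at Gstt2 and Mif. Gstt1 probe 9060, at 0.07, breaks that run. Beyond Ddt, Cabin1, Susd2, Ggt1 and Lrrc75b had no probe and Ggt5 was not tested, so where the run starts is not known. The next tested gene on that side was Snrpd3, at -0.18 ± 0.22.

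Of the 20 protein-coding genes nearest to the family, 10 on each side, 9 had a probe and 8 had one with a ratio on all 6 arrays. Of their 10 tested probes, 1 was called higher (Ddt) and 0 lower, which is 10% against 27.1% of all probes called in either direction. The median of the 10 was 0.00, and that of all tested probes was -0.01. The lowest were the chromatin remodelling subunit Smarcb1 at -0.19 ± 0.13, the spliceosomal protein Snrpd3 at -0.18 ± 0.22, Slc5a4b at -0.10 ± 0.23 and the matrix metalloproteinase Mmp11 at -0.07 ± 0.19, and Derl3, a factor of endoplasmic reticulum-associated degradation, was at 0.05 ± 0.04 on its higher probe. None of these passed. Ggt5, which cleaves glutathione conjugates, had ratios on only 4 arrays and was not tested. Of the tested genes only Ddt and Snrpd3 lie before Gstt3, so the share called is mostly from the Mif side.

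**Figure D3:**
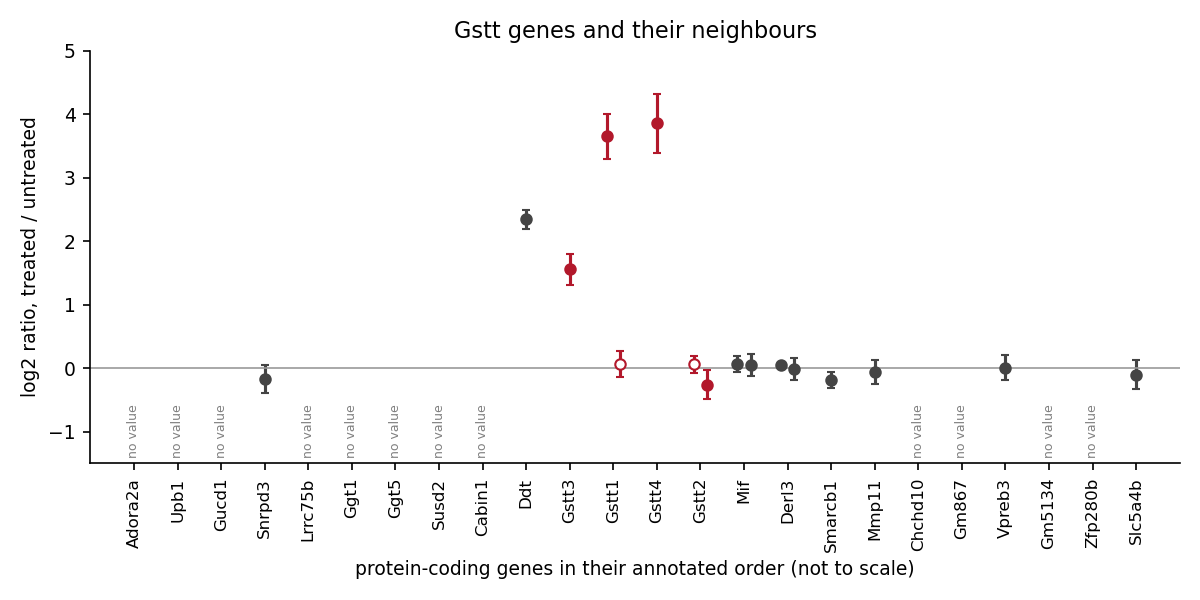
Mean log2 ratio of treated over untreated RNA (± SD of the set means, n = 3, open circles n = 2) for each probe of the Gstt genes (red) and of the 10 protein-coding genes on each side (grey), in annotated gene order and not to scale; "no value" marks genes without a probe measured on all 6 arrays. Ddt at 2.34, Gstt3 at 1.55, Gstt1 probe 1709 at 3.65 and Gstt4 at 3.86 are neighbours, and Gstt2 and Mif are within 0.26 of 0.

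Promoter sequences of Gstt1, Gstt3 and Gstt4, the genes with a high ratio on at least 1 probe, are shown. The sequences used here held none for Gstt2, so its promoter could not be searched. They are RefSeq sequences of GRCm38.p6 from 250 bases before to 50 bases after the annotated start, minus strand, at chr10:75797682-75797981 for Gstt1, chr10:75781373-75781672 for Gstt3 (the more upstream of 2 annotated starts, 8 bases apart) and chr10:75822494-75822793 for Gstt4. Capitals mark matches to any of the motifs named after the sequences.
Gstt1: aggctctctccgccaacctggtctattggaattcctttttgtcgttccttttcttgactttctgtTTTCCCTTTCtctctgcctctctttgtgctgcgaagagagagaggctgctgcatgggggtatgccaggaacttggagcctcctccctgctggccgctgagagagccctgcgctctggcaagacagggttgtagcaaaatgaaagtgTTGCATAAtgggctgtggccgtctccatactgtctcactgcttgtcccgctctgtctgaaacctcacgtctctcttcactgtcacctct
Gstt3: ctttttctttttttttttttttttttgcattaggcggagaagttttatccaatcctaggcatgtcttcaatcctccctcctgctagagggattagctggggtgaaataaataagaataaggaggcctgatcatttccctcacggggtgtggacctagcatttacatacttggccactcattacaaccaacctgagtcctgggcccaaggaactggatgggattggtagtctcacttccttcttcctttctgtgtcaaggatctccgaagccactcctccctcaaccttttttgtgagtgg
Gstt4: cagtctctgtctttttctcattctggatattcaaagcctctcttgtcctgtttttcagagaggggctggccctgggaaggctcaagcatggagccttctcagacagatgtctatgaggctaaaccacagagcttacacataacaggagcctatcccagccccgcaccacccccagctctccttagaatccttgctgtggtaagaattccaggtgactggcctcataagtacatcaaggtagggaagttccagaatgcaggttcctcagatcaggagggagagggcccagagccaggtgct

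Both strands of these windows were searched for the antioxidant response element core (TGACNNNGC, held by 12.4% of 32851 promoters of the same length), the paired half-sites of the interferon-stimulated response element (GAAA, any 2 bases, GAAA, 3.44%), the interferon gamma-activated site (TTCNNNGAA, 8.3%), the AP-1 site (TGANTCA, 7.81%), the xenobiotic response element core (GCGTG, 32.4%), a C/EBP site (TTGCNNAA, 10.8%) and the NF-kB site by its degenerate consensus (4.51%). Gstt1 held a match to the paired GAAA half-sites on the minus strand of the window from position -185, counted from 0 at the annotated start, and a TTGCNNAA match from position -39, and these did not overlap. The NF-kB consensus was GGGRNWYYCC (R is A or G, W is A or T, Y is C or T, N is any base). Looser forms of the motifs were not searched. The windows of Gstt3 and Gstt4 held no match to the patterns searched. Such matches describe letters in a window and do not show a site in use.

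The probes with a single symbol whose 6 ratios were nearest to those of Gstt4, by root mean square difference, were Gm9706 (0.17), the interleukin gene Il1b (0.20, probe 3465), Rb1cc1 (0.27), the ubiquitin-like modifier gene Isg15 (0.29) and the interleukin gene Il6 (0.32). Their means ran from 3.74 to 3.90. Nearest to Gstt1 probe 1709 were Gm9706 (0.24), Isg15 (0.32) and Il1b (0.33), against 0.34 for Gstt4. Nearest to Gstt3 were H2-T9 (0.10) and both probes of H2-T22 (0.13 each), which are nonclassical MHC class I genes, with means of 1.53 to 1.57. Nearest to Gstt2 probe 1203 were Brf2 (0.11), Tmem106b (0.12) and Paqr4 (0.12). Likeness over 6 arrays of 1 contrast mostly reflects a like size of the ratio.

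No tested probe of the other glutathione transferases listed had a mean as high as Gstt4 or Gstt1 probe 1709, but Ptges (1.72) lay above Gstt3 (1.55). The family was picked with the Gstt4 ratio known, so nothing is read from this order. Of 30 genes listed from the other classes and related membrane enzymes, 24 had a probe, and of 24 tested probes 2 were called higher and 3 lower, which is 20.8% against 27.1% of all probes. The median was -0.04. Ptges, the inducible prostaglandin E synthase of the membrane-bound family, rose by 1.72 ± 0.18 (3.30-fold, limma, adjusted p = 6.73e-06), and the glutathione transferase-fold chloride channel protein Clic4 by 0.38 ± 0.20 (adjusted p = 0.0259). The Clic4 call was lost with zeros kept (adjusted p = 0.139), without set 1 or set 2, and without any 1 of the 3 arrays that carried treated RNA in Cy3. Microsomal Mgst3 fell by 1.01 ± 0.11 (adjusted p = 9.23e-05), the leukotriene C4 synthase gene Ltc4s fell by 0.94 ± 0.13 (adjusted p = 0.000159) and the mu-class Gstm1 fell by 0.93 ± 0.24 (adjusted p = 0.000456). The prostaglandin D synthase Hpgds, at -0.54 ± 0.55, did not pass (adjusted p = 0.0513), nor did the omega-class Gsto1 at 0.14 ± 0.10 or Gstm2 at 0.14 ± 0.11. The alpha-class genes tested, Gsta1, Gsta2 and Gsta4, lay between -0.27 and -0.19, and Gstp1 at -0.12 ± 0.17, and none of these passed.

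**Figure D4:**
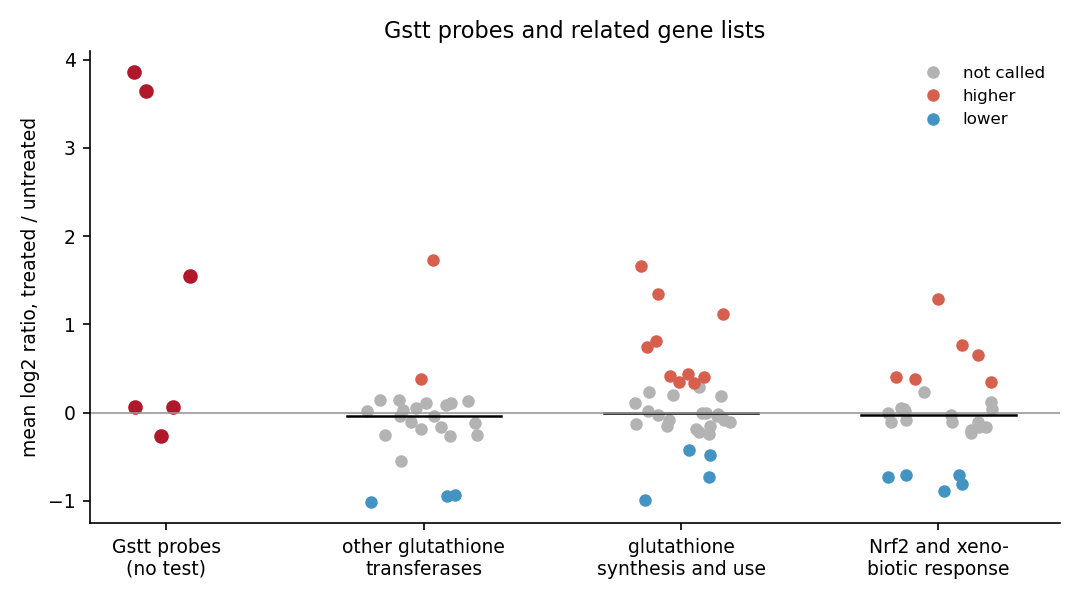
Mean log2 ratio of treated over untreated RNA for the 6 Gstt probes (red, no test) and for the tested probes of 3 related gene lists, coloured by call (limma, adjusted p under 0.05), with black lines at the list medians. The probes of the lists lie between -1.01 and 1.72, below Gstt4 (3.86) and Gstt1 probe 1709 (3.65). The other Gstt probes lie within that range, from -0.26 to 1.55.

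Genes that make, recycle and use glutathione moved both ways. Of 48 listed, 36 had a probe, and of 34 tested probes 10 were called higher and 4 lower (41.2% against 27.1% of all probes), with a median of -0.00. With zeros kept the split was 4 higher and 5 lower of 42 probes, where 8.64% of all 16281 probes were called in either direction. Without set 2 the calls numbered 9 of 34, where 2230 of 12907 probes were called. The glutaredoxin Glrx, which removes glutathione from proteins, rose by 1.66 ± 0.21 (adjusted p = 1.04e-05). Ggt7, of the gamma-glutamyltransferase family, rose by 1.34 ± 0.21 (adjusted p = 3.89e-05). Chac1, which degrades glutathione, rose by 1.11 ± 0.09 (adjusted p = 4.69e-05), and the cystine transporter Slc7a11 by 0.81 ± 0.29 (adjusted p = 0.00141). Gclc, the catalytic subunit of the first step of glutathione synthesis, fell by 0.99 ± 0.16 (adjusted p = 0.00015), and the glutathione reductase Gsr fell by 0.73 ± 0.14 on the probe that could be tested (adjusted p = 0.000667). The pentose phosphate enzyme Pgd fell by 0.48 ± 0.10 and the glyoxalase Glo1 by 0.42 ± 0.09 (adjusted p = 0.00479 and 0.00823). The Pgd call was lost without the set 2 array with treated RNA in Cy3.

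Genes of the Nrf2 and xenobiotic responses, to which many glutathione transferases belong, had probes called both ways with zeros missing. Of 38 listed, 33 had a probe, and of 27 tested probes 6 were called higher and 5 lower (40.7% against 27.1%), with a median of -0.02. With zeros kept, 4 of 36 probes were called higher and 0 lower, where 8.64% of all 16281 probes were called in either direction. The probes called with zeros missing had a ratio on all 6 arrays, so their ratios were the same in both settings. What changed was the fit over all probes: its lowest adjusted p was 0.0222 with zeros kept and 7.22e-08 with zeros missing (limma). The haem oxygenase Hmox1 rose by 1.29 ± 0.24, the superoxide dismutase Sod2 by 0.76 ± 0.10, the aldo-keto reductase Akr1b8 by 0.65 ± 0.05 and the small Maf factor Maff by 0.40 ± 0.06 (limma, adjusted p = 6.75e-05, 0.000427, 0.000805 and 0.00953). The Maff call was lost without set 2 and without either the Cy5 array of set 3 or the Cy3 array of set 2. The thioredoxin reductase Txnrd1 fell on all 3 probes, to -0.89 ± 0.50, -0.80 ± 0.29 and -0.73 ± 0.30, and the catalase Cat fell by 0.71 ± 0.25 (adjusted p = 0.00502, 0.0015, 0.0027 and 0.00202). Nqo1, a quinone reductase and standard Nrf2 target, also fell, by 0.70 ± 0.37 (adjusted p = 0.00572). Nqo1 lies outside the naming rule of this list, as do Gstp1 and the alpha-class genes of the first list, and was chosen after its value was seen. With zeros kept the calls of Gstm1, Slc7a11, Txnrd1, Cat and Nqo1 were lost (adjusted p = 0.056, 0.0804, 0.0812 to 0.148, 0.0799 and 0.135), as was that of Clic4. Each of the probes concerned had 6 ratios other than 0, so its own values did not change. The lists were drawn up with earlier results of these data known.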

How the data were processed

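Per array the authors deposited a single log ratio for every probe, taken here as log2 of Cy5 over Cy3. For the base, background correction, normalization and filtering, the method is not given in the sources used here. Deposited medians were 0 on every array. All per-sample columns were mapped (0 left over). Probes were named by the platform annotation (13738 with 1 symbol, 52 with several, 2491 with none), and gene IDs were updated through RefSeq, which changed 0 symbols. Ratios with treated RNA in Cy3 were turned, exact zeros set to missing, and both orientations of a set averaged. The 12724 probes with 6 ratios were tested in limma 3.58.1 (R 4.3.3; intercept, eBayes, two-sided) with Benjamini-Hochberg adjustment, and an adjusted p under 0.05 was a call. The small number of arrays limits the precision. Recovery of the treatment effect was tried on simulated ratios of 12724 probes, with noise independent between arrays. They gave back 13 of 50 probes changed by a log2 value of 0.5, 37 of 50 changed by 1 and 49 of 50 changed by 2. Only 200 simulated probes were changed, against 3443 called in the data, so the adjusted threshold differs. Members and lists were chosen with earlier results of these data known. Named were all Gstt probes, their nearest probes by ratio, and the 4 highest and 4 lowest tested probes of each list. Alternatives concerned zeros, probe averaging, replicates, centring, scaling, and leaving out sets or arrays.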

Additional observations from a re-analysis of the deposited data

Results flagged for a closer look

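Gstt2 probe 2882 was the Gstt probe whose arrays moved one way in 1 dye orientation and the opposite way in the other. Its mean with treated RNA in Cy5 was lower by 0.90 than that with treated RNA in Cy3 (Cy5 minus Cy3, -0.90). The difference was not tested, since 1 of its arrays was listed at 0.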

How the results depend on the processing

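Gstt4, Gstt3 and Gstt1 probe 1709 stayed above 0 in all 16 alternatives, and Gstt2 probe 1203 below 0. Their means moved by less than 1 SD, except that averaging the probes of 1 symbol put Gstt1 at 2.22, a value between its probes (3.65 and 0.07). Gstt1 probe 9060 moved by over 1 SD in that setting alone and was below 0 in 3 of 16. Gstt2 probe 2882 was at 0.21 with probes of at least 1 value in each set and at -0.10 after averaging its probes, and ran from -0.31 to 0.43 when 1 set or array was left out.

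Over all probes, treatment calls numbered 3443, 1407 with zeros kept (64.2% of them higher, against 54.8%), and 1992 to 3067 without 1 set or array. The lowest counts were 2230 without set 2, and 1992 or 2200 without the Cy3 array of set 2 or set 3. Dye calls numbered 23, 0 with zeros kept (3922 at an unadjusted p under 0.05, limma), 58 with at least 1 value in each set, 8 after averaging probes, and 0 to 37 without 1 set or array. Without set 1 the 0 dye calls stood beside 1885 at an unadjusted p under 0.05. With 1 array left out, the treatment effect no longer cancels in its set. With zeros kept, 8.64% of all probes were called. In that setting 5024 of 16281 probes were at an unadjusted p under 0.05 for treatment (limma), against 4874 of 12724 with zeros missing. Calls in that setting were 3 of the other glutathione transferases (5), 9 of glutathione synthesis and use (14) and 4, all higher, of the Nrf2 list (11). Without 1 set or array the glutathione list had 9 to 14.

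The main analysis averaged both orientations of a set, so that dye effects cancel, and counted a set as 1 replicate. Deviations of same-numbered arrays correlated at r = 0.53, 0.08 and 0.17, so the data alone do not show that the numbers pair the arrays. With set as a random replicate block of 6 arrays, 3798 probes were called for treatment and 1261 for dye. That second fit sets opposite treatment signs within each block. With no block, 3673 and 28 were called. Dye adjusted p-values (limma) of Gstt4 ran from 0.0759 to 0.111 and those of Gstt1 probe 1709 from 0.0577 to 0.121 over the alternatives that kept all arrays and set means. In the fits of 6 arrays they were 0.999 for both probes with no block. With the random block they were 0.703 for Gstt4 and 0.554 for Gstt1 probe 1709. In those fits the treatment effect, opposite in sign between orientations, is part of the spread.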
